A study of Mus musculus with 20 samples.

Results

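The osmotic response and water transport were followed in the intervertebral disc of old mice through 9 genes: Nfat5, Slc6a6, Slc5a3, Slc6a12, Akr1b3, Hspa4l, Aqp1, Aqp3 and Aqp5. They were taken by symbol, and all 9 were found among the 51789 genes of the deposited expression table. NFAT5, also called TonEBP, is a transcription factor of the Rel family that is activated when the fluid around a cell becomes hypertonic. It binds tonicity-responsive enhancers and raises transporters and enzymes that load the cell with small organic osmolytes, and chaperones that protect its proteins. The aggrecan-rich matrix of the nucleus pulposus binds cations and water, so its cells live in a hyperosmotic fluid whose tonicity changes as the disc is loaded. Aquaporins are membrane channels for water, and some of them also pass glycerol.

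RNA was sequenced from the nucleus pulposus (NP, the gel-like core of the disc) and from the annulus fibrosus (AF, the lamellar ring around it). All mice were BL6 animals 24 months old, and all had received intraperitoneal DMSO each week for 6 months from the age of 18 months. In the MDL-800 groups the DMSO carried MDL-800, a small molecule known as an activator of the deacylase SIRT6; in the vehicle groups it carried nothing else. No genetic change is named in the labels. There were 4 groups of 5 libraries, numbered here as in the sample titles. Libraries 1, 2, 3, 5 and 6 are NP and 8, 9, 10, 12 and 13 are AF from vehicle mice. Libraries 15, 18, 19, 20 and 22 are NP and 25, 27, 28, 29 and 30 are AF from mice given MDL-800. The labels do not say whether each library is a separate animal, so p-values measure the spread between these libraries only. Values are listed below in ascending library number within each group. They are scaled FPKM, that is fragments per kilobase of transcript, relative to the library's fragments, divided by a scaling factor for each library, and they are per length, so genes can be compared with each other.

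Estimated depth was 12.5 to 21.3 megareads a library. NP marker genes, such as the keratins Krt8, Krt18 and Krt19, summed to 25616 to 32852 scaled FPKM in the NP libraries and to 2527 to 15106 in the AF libraries, without overlap. Of the 9 NP markers tested 7 were higher in NP with vehicle, and the transcription factor genes Pax1 (-4.18) and Foxf1 (-2.44) were lower; with MDL-800 the counts were 6 and 2. AF marker genes, such as tenomodulin, summed to 785 to 1570 in NP and to 2775 to 8437 in AF. AF vehicle library 9 stood apart, with both the highest sum of NP markers of the AF libraries (15106, the next being 7544) and the lowest sum of AF markers (2775). For the 9 genes, calls between tissues that it changes are given with and without it. Markers of most neighbouring tissues were lower in NP. In the vehicle groups all 8 red blood cell markers (48.7 to 184 in NP, 655 to 2124 in AF) and all 8 endothelial markers (3.71 to 8.48 in NP, 52.4 to 124 in AF) fell, and none of these 16 was at 0 throughout a group. Smooth muscle markers went the other way, with 3 higher and 1 lower of 5 (729 to 1464 in NP, 217 to 735 in AF), and neither of the 2 epidermal markers tested was called. In bulk tissue, fewer cells of a type and less RNA per cell cannot be told apart.

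**Figure D1:**
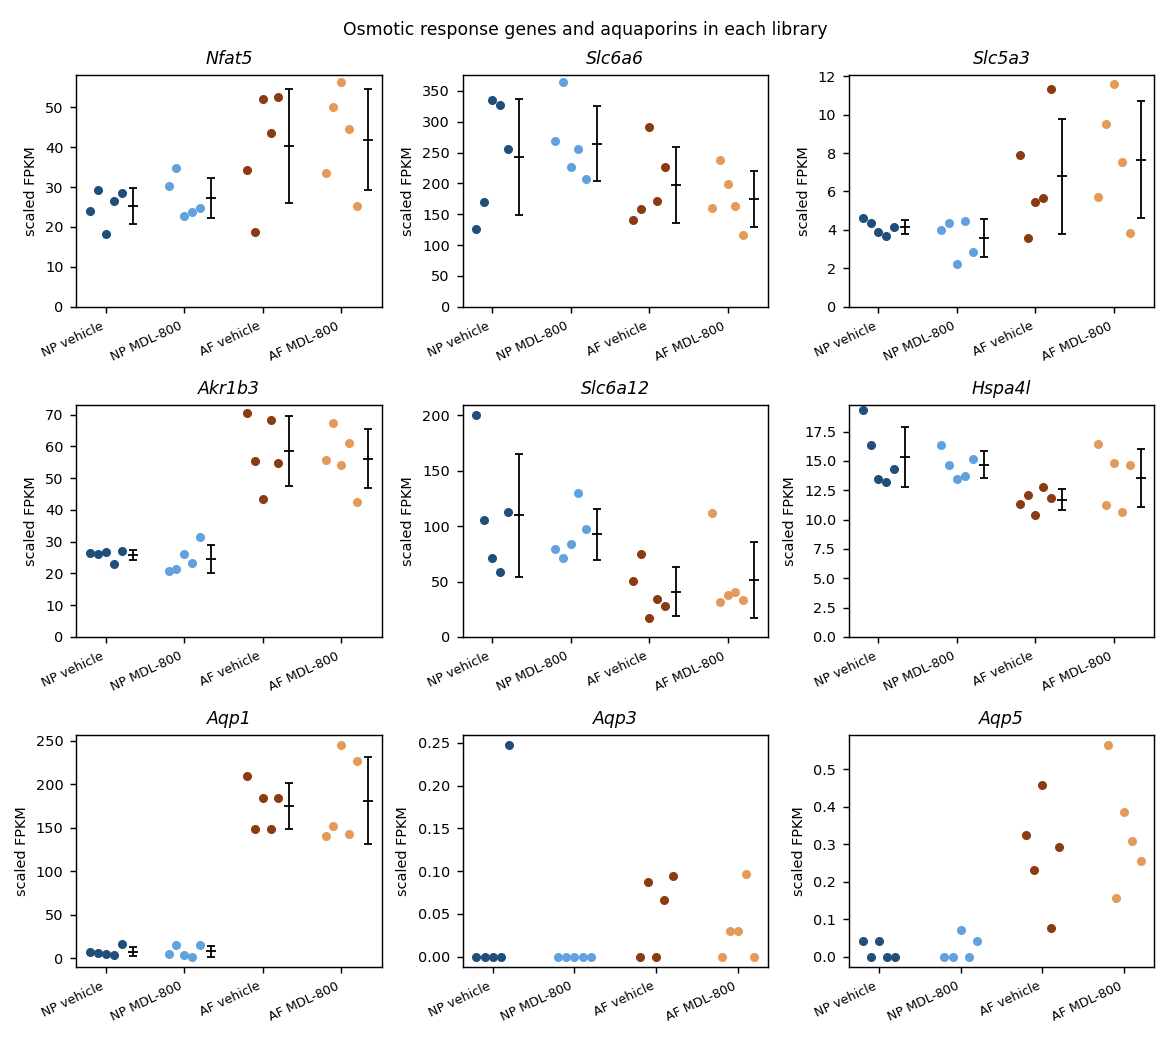
Level of each gene in every library, in scaled FPKM on a linear axis, for the 4 groups of 5 libraries (dots, in ascending library number); the bar beside the dots of 7 genes is the mean and its whiskers are 1 SD. Akr1b3 and Aqp1 in NP lie below every AF library, while vehicle and MDL-800 libraries of a tissue overlap for each of these 7 genes.

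Among the 9 genes, Slc6a6 had the highest mean in both vehicle tissues, 243 ± 93.9 scaled FPKM in NP and 198 ± 61.6 in AF (SD, n = 5 each). In NP vehicle it was followed by Slc6a12 (109.7 ± 55.5), Akr1b3 (25.8 ± 1.60), Nfat5 (25.2 ± 4.44), Hspa4l (15.3 ± 2.55), Aqp1 (7.84 ± 5.36) and Slc5a3 (4.14 ± 0.372). Akr1b3 and Nfat5 differed by less than their spread in that order. In AF vehicle the order was Slc6a6, Aqp1 (175 ± 26.4), Akr1b3 (58.6 ± 11.1), Slc6a12 (40.9 ± 22.2), Nfat5 (40.3 ± 14.2), Hspa4l (11.7 ± 0.876) and Slc5a3 (6.78 ± 2.97). There Slc6a6 and Aqp1, and likewise Slc6a12 and Nfat5, lay within each other's spread. Aqp1 thus stood near the bottom of the order in NP and near the top in AF. Aqp3 and Aqp5 were close to 0 in both tissues.

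NP was set against AF with limma on log2(scaled FPKM + 1), with Benjamini-Hochberg adjustment over the 16383 genes that passed a filter on low values; a gene is called at an adjusted p under 0.05. Of the 9 genes 7 passed the filter, and Aqp3 and Aqp5 did not. In the vehicle groups 4 of these 7 genes were called, 2 higher and 2 lower in NP, where 55.7% of all genes tested were called (21.8% higher and 33.9% lower). In the MDL-800 groups 6 of 7 were called, 2 higher and 4 lower, where the background was 62.8% (25.6% higher and 37.2% lower). Without AF library 9, 6 of 7 were called with vehicle (54.7% of all genes), and with all 4 groups in the fit 4 of 7 were called with MDL-800 (62.0% of all genes). The count thus varied from 4 to 6 with 1 library or with the fit, and no difference between the treatments is read from it. The median difference of the 7 genes was -0.52 with vehicle and -0.57 with MDL-800, beside -0.08 and -0.08 over all genes. Quantile normalization moved the median of all genes in the vehicle comparison from -0.08 to 0.20 and the share of calls that were higher in NP from 39.2% to 62.3%; with the GC trend of each library removed this share was 48.9%. With MDL-800 it was 40.7%, 61.7% and 49.7% in the same order. None of the 7 genes changed direction in either tissue comparison under these scalings.

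**Figure D2:**
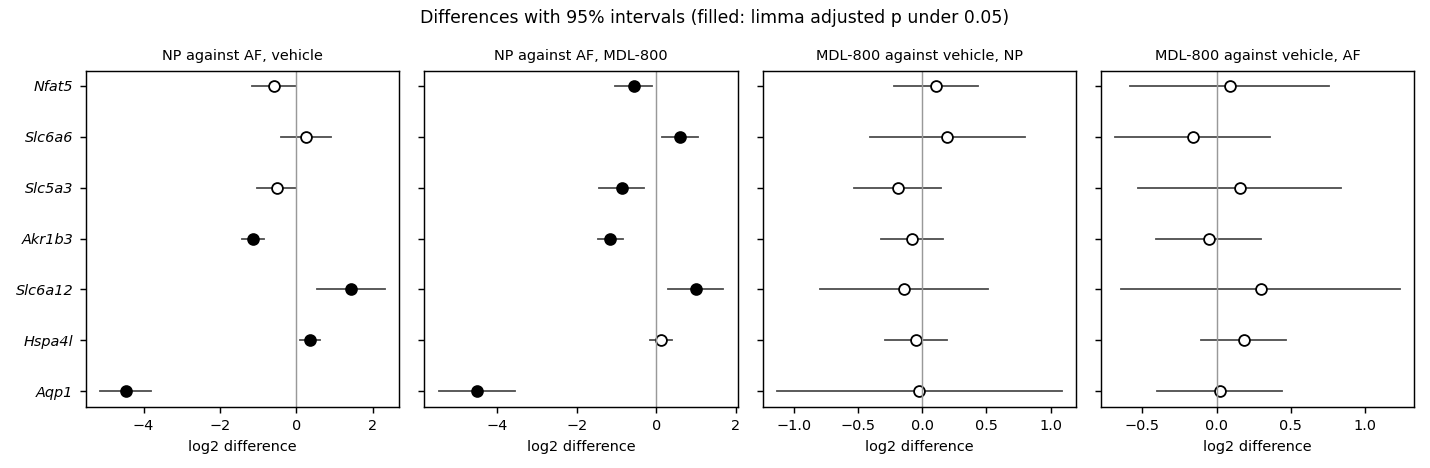
Log2 difference of scaled FPKM + 1 with its 95% confidence interval for the 7 genes tested, in 4 comparisons; filled dots have a limma adjusted p under 0.05. Slc6a12 is filled on the NP side and Akr1b3 and Aqp1 on the AF side in both tissue comparisons, and no dot is filled for MDL-800 against vehicle.

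Nfat5, the osmosensitive transcription factor itself (ENSMUSG00000003847, GRCm38 chromosome 8, 107293470 to 107379517, plus strand), had a higher mean in AF than in NP. Its levels were 24.0, 29.1, 18.1, 26.4 and 28.4 in NP vehicle and 34.4, 18.6, 52.2, 43.6 and 52.6 in AF vehicle. Of 5 AF libraries 4 were above every NP library, and the low one was library 9, whose NP markers were the highest in AF. The difference of -0.59 (95% interval -1.16 to -0.01) did not pass (limma, adjusted p = 0.0790). Without library 9 it was -0.83 and passed (adjusted p = 0.00231). That was the only 1 of 10 omissions of a library to pass. Over all of them the difference ran from -0.83 to -0.47, with a limma adjusted p of up to 0.175. With MDL-800 the levels were 30.2, 34.7, 22.8, 23.7 and 24.7 in NP and 33.5, 50.1, 56.3, 44.5 and 25.2 in AF. AF libraries 25 and 30 lay among the NP libraries. Nfat5 fell in NP there by 0.57 on the log2 scale (interval -1.03 to -0.10; limma, adjusted p = 0.0352). That call was lost when any of NP libraries 19, 20 and 22 or AF libraries 27, 28 and 29 was left out (adjusted p 0.0700 to 0.0841), and also with no filter (0.0756), quantile normalization (0.109), the GC trend removed (0.0895) or all 4 groups in the fit (0.0555).

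Slc6a6, the taurine transporter (ENSMUSG00000030096, chromosome 6, 91684053 to 91759066, plus strand), was abundant and variable in both tissues. It reached 125, 169, 336, 327 and 256 in NP vehicle and 141, 158, 292, 171 and 227 in AF vehicle. The groups overlapped over most of their range, and the difference of 0.25 (interval -0.41 to 0.91) did not pass (limma, adjusted p = 0.507). NP libraries 1 and 2, which were lowest for Slc6a6, also had the most negative slope of expression on GC content among the NP libraries (-0.28 each, log2 per 10 points of GC). With the GC trend removed the difference was 0.39 and still did not pass (adjusted p = 0.266). Leaving out 1 library gave 0.11 to 0.46, and none of these passed. With MDL-800 Slc6a6 was at 268, 364, 227, 255 and 207 in NP, beside 159, 237, 199, 164 and 117 in AF. There 3 NP libraries were above every AF library and 2 lay within the AF range. It was higher in NP by 0.60 (interval 0.16 to 1.04; limma, adjusted p = 0.0224), a ratio of means of 1.51. The call was lost without NP library 18 (adjusted p = 0.0518), with no filter (0.05002) and with all 4 groups in the fit (0.0577). A gene model of unknown coding status, Gm45828, overlaps Slc6a6 on the same strand at a mean of 1.85 FPKM.

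Slc5a3, the sodium-dependent myo-inositol transporter (ENSMUSG00000089774, chromosome 16, 92058322 to 92087473, plus strand), had the lowest level of the 7 genes tested. It was at 4.62, 4.35, 3.91, 3.67 and 4.16 in NP vehicle and at 7.89, 3.57, 5.46, 5.65 and 11.3 in AF vehicle. AF library 9 alone fell below the NP range, and the other AF libraries were above it. The difference of -0.52 (interval -1.02 to -0.02) did not pass (limma, adjusted p = 0.0740), and without library 9 it was -0.69 (adjusted p = 0.0120). It was smaller without AF library 13 (-0.33, adjusted p = 0.154) and with quantile normalization (-0.08, adjusted p = 0.765). With MDL-800 the levels were 4.01, 4.33, 2.24, 4.44 and 2.84 in NP and 5.71, 9.52, 11.6, 7.54 and 3.86 in AF. All AF libraries but 30 exceeded all NP libraries. Slc5a3 fell in NP by 0.87 (interval -1.44 to -0.30; limma, adjusted p = 0.0123), with a mean 2.14 times higher in AF. With quantile normalization this was -0.44 and did not pass (adjusted p = 0.161). The gene lies within Mrps6, a mitochondrial ribosomal protein gene on the same strand at a mean of 19.1 FPKM, so reads of the overlap can be assigned to either.

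Slc6a12, the betaine and GABA transporter BGT1 (ENSMUSG00000030109, chromosome 6, 121343076 to 121365775, plus strand), was higher in NP than in AF with either treatment. The enhancer that NFAT5 binds was first described upstream of the betaine transporter gene. Of the 9 genes, 7 matched the RefSeq promoter table on GRCm38.p6 (Slc6a6 and Akr1b3 did not), with 11 promoters of 300 bases in all, 5 of them of Slc6a12. The core TGGAAA was searched on both strands. It was found in 1 of the 11, and 21.4% of the 32851 promoters of that table hold it; the longer tonicity enhancer consensus, which includes this core, is held by 4.96%. The promoter with the match is shown because its gene is the transporter in which the enhancer was described. It lies at chr6:121342324-121342623 on the plus strand, upstream of the gene start at 121343076 given above. The Slc6a12 promoter that spans that gene start (121342826 to 121343125) held no match, nor did the other Slc6a12 promoters. In the promoter shown, the match to the longer consensus is in capitals and begins at -75 from that promoter's own transcription start.
Slc6a12: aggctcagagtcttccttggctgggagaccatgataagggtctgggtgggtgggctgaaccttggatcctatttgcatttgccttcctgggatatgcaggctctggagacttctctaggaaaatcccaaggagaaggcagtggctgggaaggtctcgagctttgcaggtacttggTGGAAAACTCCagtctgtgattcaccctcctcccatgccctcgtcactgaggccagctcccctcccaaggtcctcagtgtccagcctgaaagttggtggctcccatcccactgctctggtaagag
The match describes these letters, and no binding was measured.

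In NP vehicle Slc6a12 was at 200.4, 105, 71.4, 58.7 and 113, and in AF vehicle at 50.3, 74.5, 17.3, 34.3 and 28.1. Only AF library 9 (74.5) reached into the NP range. Slc6a12 was higher in NP by 1.44 (SE 0.40, interval 0.55 to 2.32; limma, adjusted p = 0.0108), a ratio of means of 2.68, and by 1.69 without library 9 (adjusted p = 0.00389). With MDL-800 it was at 79.6, 71.1, 84.3, 129.7 and 97.7 in NP, beside 112, 31.9, 37.7, 40.5 and 33.4 in AF. The other 4 AF libraries lay below all NP libraries, while AF library 25 lay above 4 of the 5. The difference was 0.99 (SE 0.32, interval 0.29 to 1.70; limma, adjusted p = 0.0186), and without library 25 it was 1.32 (adjusted p = 0.000101). Leaving out each library in turn gave 1.18 to 1.69 with vehicle, with a limma adjusted p of up to 0.0280. With MDL-800 it gave 0.86 to 1.32, with an adjusted p of up to 0.0472.

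Akr1b3, aldose reductase, which makes the osmolyte sorbitol from glucose (ENSMUSG00000001642, chromosome 6, 34302434 to 34317478, minus strand), was lower in NP than in AF. It was at 26.4, 26.0, 26.6, 23.02 and 27.0 in NP vehicle and at 70.6, 55.5, 43.6, 68.4 and 54.7 in AF vehicle. The groups did not overlap, as for 41.0% of all genes tested. It fell in NP by 1.13 (SE 0.13, interval -1.42 to -0.85; limma, adjusted p = 4.77e-05), with a mean 2.27 times higher in AF. With MDL-800 the levels were 20.8, 21.4, 26.1, 23.2 and 31.6 in NP and 55.8, 67.3, 54.2, 61.1 and 42.5 in AF, again without overlap, as for 49.1% of genes. The fall was 1.16 (SE 0.14; limma, adjusted p = 5.12e-05), and the mean was 2.28 times higher in AF. Akr1b3 and Slc6a12 thus differed between the tissues in opposite directions with either treatment. The gene model Gm38056 matches Akr1b3 at 99.755% identity over 408 bases and had a mean of 3.56 FPKM, so some reads cannot be placed between them.

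Hspa4l, an Hsp110-family chaperone first described as an osmotic stress protein (ENSMUSG00000025757, chromosome 3, 40744495 to 40796103, plus strand), varied least between the groups. It was at 19.3, 16.3, 13.4, 13.2 and 14.3 in NP vehicle and at 11.3, 12.1, 10.4, 12.8 and 11.9 in AF vehicle. The groups did not overlap, as for 41.0% of all genes tested, but the lowest NP value (13.2) and the highest AF value (12.8) were close. It was higher in NP by 0.35 (SE 0.12, interval 0.10 to 0.61; limma, adjusted p = 0.0239), a ratio of means of 1.31. The call was lost without NP library 2 (limma, adjusted p = 0.0562) or AF library 10 (0.0566). NP libraries 1 and 2, the highest for Hspa4l, also had the most negative GC slopes of NP. Over the 10 NP libraries r of Hspa4l with that slope was -0.680. The call was kept with the GC trend removed. With quantile normalization the difference was larger, 0.60 (adjusted p = 0.00122). With MDL-800 the levels were 16.4, 14.6, 13.5, 13.7 and 15.1 in NP and 16.4, 11.2, 14.8, 10.7 and 14.7 in AF. These overlapped, and the difference of 0.12 (interval -0.15 to 0.39) did not pass (limma, adjusted p = 0.418), although it did with quantile normalization (0.36, adjusted p = 0.0259). The tissue difference was not shown to differ between treatments, by the interaction test given below.

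Aqp1, the water channel of red blood cells and capillary endothelium among other cells (ENSMUSG00000004655, chromosome 6, 55336432 to 55348555, plus strand), had the largest tissue difference of the 7 genes in both comparisons. In NP vehicle it was at 7.66, 5.84, 4.52, 4.08 and 17.1, and in AF vehicle at 209.8, 149, 184, 148 and 185. With MDL-800 it was at 5.46, 14.9, 4.05, 2.19 and 15.7 in NP, beside 139.9, 152, 244, 143 and 227 in AF. Every AF library was far above every NP library, library 9 included. Aqp1 fell in NP by 4.47 (SE 0.30, interval -5.14 to -3.80; limma, adjusted p = 4.02e-06) with vehicle and by 4.52 (SE 0.44; adjusted p = 1.00e-05) with MDL-800. The means were 22.3 and 21.4 times higher in AF. All 8 red blood cell and all 8 endothelial markers were lower in NP with MDL-800 too, with sums of 29.8 to 217 against 619 to 3304 and of 1.82 to 9.65 against 65.5 to 113; their part in the tissue difference was not tested.

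Within NP, Aqp1 varied with both marker sums over the 10 libraries of both treatments. The 3 libraries at 14.9 to 17.1 (6, 18 and 22) had red cell sums of 184, 167 and 217, and the other 7 had sums of 29.8 to 109. On the log2 scale Pearson's r with the red cell sum was 0.937 (adjusted permutation p = 0.00238 over 14 relations; Spearman's rho = 0.903, adjusted p = 0.0105), and 0.884 without the 2 libraries farthest from the median. With the endothelial sum r was 0.891 (adjusted permutation p = 0.00238; rho = 0.830, adjusted p = 0.0281), and 0.837 without 2 libraries. Without libraries 6, 18 and 22 it was 0.770 and 0.826 over 7 libraries. Both marker sums thus went with Aqp1 in NP, and they cannot be told apart as they were high in the same libraries. Neutrophil marker sums were also highest in NP libraries 6, 18 and 22 (2972, 1556 and 1575), with library 1 close at 1538. Their relation to Aqp1 was not tested. In AF r was 0.624 with red cells (adjusted permutation p = 0.159, rho = 0.479) and 0.457 with endothelium (adjusted p = 0.319), neither of which passed.

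**Figure D3:**
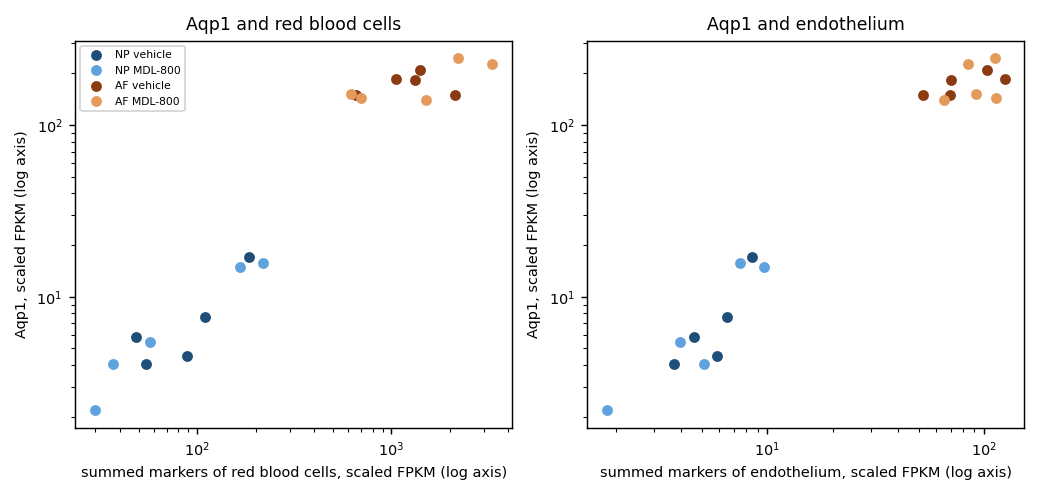
Aqp1 against the summed markers of red blood cells (left) and of endothelium (right) in each library, in scaled FPKM on log axes, coloured by group. The 10 NP libraries run from low to high in both measures together, up to 17.1 for Aqp1, and the 10 AF libraries form a separate cloud at 139.9 and above.

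Aqp3, a channel for water and glycerol (ENSMUSG00000028435, chromosome 4, 41092722 to 41098183, minus strand), was listed at 0 in 13 of the 20 libraries. It was at 0.247 in NP vehicle library 6 and at 0 in the other 9 NP libraries. In AF it was at 0, 0.087, 0, 0.067 and 0.094 with vehicle and at 0, 0.029, 0.030, 0.096 and 0 with MDL-800. A single read was worth about 0.0293 to 0.0507 FPKM for this gene, taken at its longest transcript, so the values stand for few reads, and no difference was detectable at this depth. Aqp5, a water channel known from glands and lung (ENSMUSG00000044217, chromosome 15, 99590782 to 99594829, plus strand), was low too. It was at 0.043, 0, 0.040, 0 and 0 in NP vehicle and at 0, 0, 0.071, 0 and 0.041 in NP MDL-800. In AF it was at 0.324, 0.232, 0.458, 0.076 and 0.292 with vehicle and at 0.563, 0.157, 0.385, 0.308 and 0.256 with MDL-800. Every AF library was above every NP library for Aqp5, the nearest being 0.076 and 0.071, at a level where a read was worth 0.0287 to 0.0497 FPKM. Among genes that passed the filter, the tissues did not overlap for 41.0% with vehicle and for 49.1% with MDL-800. When the filter on low values was left out, the Aqp5 difference was -0.32 with vehicle (limma, adjusted p = 0.00674) and -0.38 with MDL-800 (adjusted p = 0.00280), on a scale that understates low genes. In that setting 32.7% of all genes were called with vehicle and 37.5% with MDL-800.

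MDL-800 was then set against vehicle within each tissue, which asks whether the long treatment went with a change of the osmotic response. In NP none of the 7 genes was called, where 0.250% of all genes tested were (41 genes, with 0.232% of genes higher and 0.0183% lower). The groups overlapped for all 7, while 4.50% of genes did not overlap. None of the 7 reached an unadjusted p under 0.05, as 2311 of all genes did. The differences of the osmolyte transporters were 0.19 for Slc6a6 (interval -0.41 to 0.80), -0.14 for Slc6a12 (-0.80 to 0.51) and -0.19 for Slc5a3 (-0.54 to 0.15). Nfat5 differed by 0.11 (-0.22 to 0.44), Akr1b3 by -0.08 (-0.32 to 0.16) and Hspa4l by -0.05 (-0.29 to 0.19). Aqp1 differed by -0.02 with the widest interval, -1.14 to 1.09. The intervals of Akr1b3, Hspa4l and Nfat5 thus leave room for changes of under 0.5 on the log2 scale, and those of the transporters and Aqp1 for larger ones. The slope of expression on GC content separated the treatments in NP, from -0.28 to -0.01 with vehicle and from 0.02 to 0.09 with MDL-800, so a treatment difference and a difference in GC slope cannot be told apart. With the GC trend removed none of the 7 was called either.

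In AF none of the 16383 genes was called (0% of genes; 270 had an unadjusted p under 0.05, none of the 7 among them). The groups overlapped for all 7 here too, and 0.226% of genes did not overlap. Slc6a12 had the largest difference, 0.30, with an interval of -0.64 to 1.24. The others were 0.18 for Hspa4l (-0.10 to 0.47), 0.16 for Slc5a3 (-0.53 to 0.84), 0.09 for Nfat5 (-0.58 to 0.76), 0.02 for Aqp1 (-0.40 to 0.44), -0.05 for Akr1b3 (-0.41 to 0.30) and -0.16 for Slc6a6 (-0.68 to 0.36). The treatment effect in NP minus that in AF was tested in a fit of all 4 groups, where 0 of 16383 genes were called by limma (0%; 611 at an unadjusted p under 0.05). It was 0.35 for Slc6a6 (-0.44 to 1.14), -0.35 for Slc5a3 (-1.10 to 0.40), -0.44 for Slc6a12 (-1.59 to 0.70) and -0.23 for Hspa4l (-0.58 to 0.12). The same contrast is the tissue difference under MDL-800 minus that under vehicle, so the calls of Nfat5, Slc6a6, Slc5a3 and Hspa4l that were made with 1 treatment only were not shown to differ between treatments. Nfat5, Akr1b3 and Aqp1 were at 0.02, -0.03 and -0.04.

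The relation of Nfat5 to 5 of its target genes was followed over the 10 libraries of each tissue, both treatments together, since 5 libraries of a group are too few. In AF, libraries with more Nfat5 had more Slc6a6 (r = 0.719, adjusted permutation p = 0.0656; rho = 0.818, adjusted p = 0.0281) and more Slc5a3 (r = 0.805, adjusted p = 0.0210; rho = 0.758, adjusted p = 0.0541). Without the 2 libraries farthest from the median of Nfat5, r was 0.782 and 0.517. The relation to Slc5a3 was thus weaker without those libraries, over a narrower range of Nfat5, and these values were not tested. Without library 9 alone r was 0.864 for Slc6a6 (adjusted permutation p = 0.0118 over 5 relations, n = 9) and 0.725 for Slc5a3 (adjusted permutation p = 0.0688), an alternative chosen after seeing the data. Slc6a12 ran the other way (r = -0.597, adjusted permutation p = 0.161) and did not pass; r was -0.787 without the 2 farthest libraries and -0.472 without library 9. Neither Akr1b3 (r = 0.151, and -0.446 without the 2 farthest libraries) nor Hspa4l (r = -0.253, and -0.274) passed. In NP no relation passed: r was 0.0941 for Slc6a6, 0.304 for Slc5a3, -0.491 for Akr1b3, -0.110 for Slc6a12 and 0.254 for Hspa4l. AF library 9, with the highest NP marker sum in AF, also had the lowest Nfat5 of that tissue, and the part of NP cells in these relations was not tested.

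**Figure D4:**
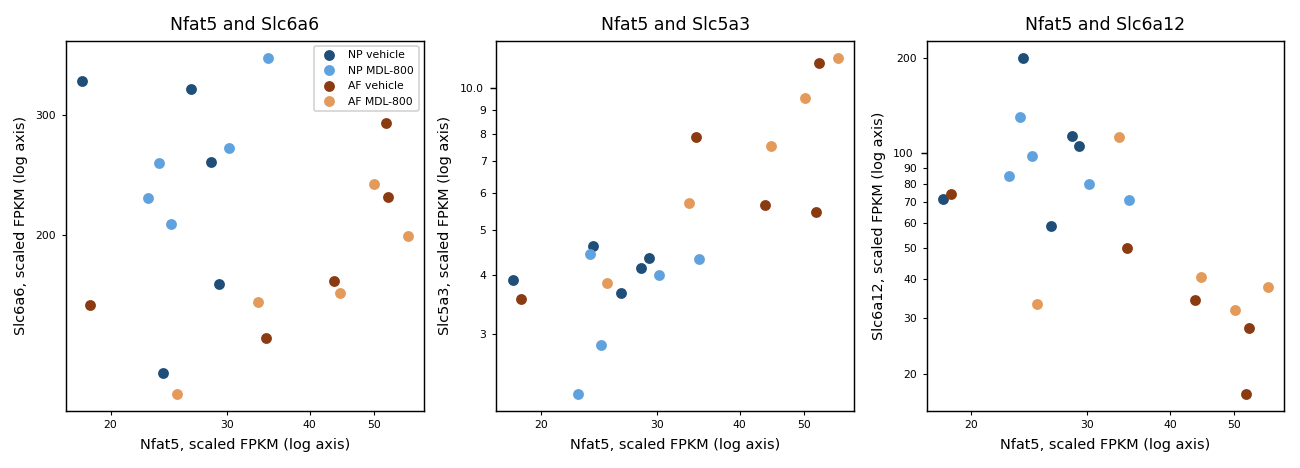
Slc6a6 (left), Slc5a3 (middle) and Slc6a12 (right) against Nfat5 in each library, in scaled FPKM on log axes, coloured by group. Over the 10 AF libraries Slc6a6 and Slc5a3 run upward with Nfat5 (r = 0.719 and 0.805), Slc6a12 runs downward (r = -0.597), and the NP libraries show no such run.

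The genes whose pattern over the 20 libraries was most like each gene's are given as a description. For Aqp1 they were Lmo2 (r = 0.993), a transcription cofactor of blood and endothelial cells, Lsp1 (0.992), a leukocyte protein, and Fli1 (0.991), a factor of endothelial and blood cells. Their deviations from the group means still correlated with those of Aqp1 at 0.947, 0.892 and 0.914. Akr1b3 was most like Htr2a (0.970), H2-M3 (0.967) and Kcnk6 (0.967), and Slc6a12 most like Alox12b (0.954), Il5ra (0.946) and Dhcr7 (0.941). The deviations from group means correlated less for Akr1b3, at 0.757, 0.779 and 0.656, and at 0.933, 0.887 and 0.892 for Slc6a12. Htr2a and Kcnk6 were near 0 in NP vehicle (means 0.090 and 0.326 scaled FPKM). For the genes named below, r of the deviations was 0.763 to 0.945. Nfat5 was most like Ric1 (0.909), Nptxr (0.895) and Rnf24 (0.893), Slc6a6 most like Cys1 (0.923), Ctdsp2 (0.922) and Nsmf (0.917), and Slc5a3 most like the hedgehog receptor Ptch1 (0.939), Pofut1 (0.920) and Fndc3a (0.912). Hspa4l had the weakest likenesses, to Suco (0.825), Atp6v1a (0.818) and Mdn1 (0.817). The 9 genes themselves were left out of this search, so the osmolyte genes among them could not appear for Nfat5.

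Other genes of the pathway were read from 5 lists, with the same backgrounds of 55.7% called with vehicle and 62.8% with MDL-800. With vehicle 21.8% of all genes were higher in NP and 33.9% lower, and with MDL-800 25.6% and 37.2%. That balance changed with the normalization, as given above, and the list counts were made under the main scaling only. Of 9 further aquaporins only Aqp7 and Aqp9, which also pass glycerol, passed the filter on low values. Both were lower in NP, Aqp9 by 2.49 (0.458 against 7.29 scaled FPKM; limma, adjusted p = 1.78e-05) and Aqp7 by 1.34 (0.358 against 2.46; adjusted p = 1.41e-05) with vehicle, and by 2.55 and 1.32 with MDL-800. Fat cells are known to express Aqp7. All 6 fat markers were lower in NP with vehicle, with sums of 1.45 to 8.90 against 118 to 218, none at 0 throughout a group, and their part was not tested.

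Of 18 further genes of osmolyte synthesis and transport 16 were tested, and with vehicle 4 were higher and 8 lower in NP (median -0.59). Cdo1, cysteine dioxygenase, which leads to taurine, was higher by 1.87 (509 ± 158 in NP, 142 ± 58.5 in AF; limma, adjusted p = 0.000278), and Csad, the next enzyme of that route, by 0.46 (adjusted p = 0.00614). Aldh7a1, which oxidises betaine aldehyde to betaine, was higher by 1.36 (57.5 against 22.1; adjusted p = 0.000529). Gpcpd1, a glycerophosphocholine phosphodiesterase, fell by 1.75 (8.90 against 31.2; adjusted p = 2.52e-05), and Slc2a13, a myo-inositol transporter, by 1.57 (0.306 against 2.97; adjusted p = 5.55e-05). With MDL-800 the counts were 4 higher and 10 lower (median -0.81), with Cdo1 at 1.75, the creatine transporter Slc6a8 at 1.12, and Gpcpd1 and the proline transporter Slc6a20a at -1.98 each.

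Of 16 further genes described as NFAT5 targets 14 were tested, and 6 were higher and 4 lower in NP with vehicle (median 0.42). Ranbp3l was higher by 2.20 (52.0 against 11.9; limma, adjusted p = 0.000109) and Acan, the aggrecan core protein, by 1.92 (2238 against 615; adjusted p = 0.000242). Lcn2, a neutrophil and stress protein, differed by -4.30 (71.2 against 942; adjusted p = 0.000489), and S100a4, a calcium-binding protein, by -4.19 (48.6 against 921; adjusted p = 2.10e-05). All 7 neutrophil and all 7 macrophage markers were lower in NP, with sums of 195 to 2972 against 6939 to 18132 and of 42.5 to 97.1 against 265 to 531, none at 0 throughout a group; their part was not tested. With MDL-800 the list had 8 higher and 4 lower (median 0.66), led by Ranbp3l (2.41) and the heat shock gene Hspa1a (1.94) on one side and S100a4 (-3.88) and Lcn2 (-3.77) on the other.

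All 18 relatives and regulators of NFAT5 were tested. Of these 2 were higher and 8 lower in NP with vehicle (median -0.29), and 1 was higher and 9 lower with MDL-800 (median -0.31). Atm, a kinase upstream of NFAT5, was higher by 0.52 (10.8 against 7.19; limma, adjusted p = 0.00229) and Cdk5 by 0.33 (adjusted p = 0.0482). Mapk13, a p38 kinase, fell by 2.39 (0.704 against 8.28; adjusted p = 0.000433), and Nfatc4, a calcineurin-dependent relative, by 1.28 (1.99 against 6.42; adjusted p = 0.000283). With MDL-800 Atm was at 0.42, Mapk13 at -2.55 and Mapk14, another p38 kinase, at -1.32.

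Of 25 genes of cell volume and ion transport 23 were tested, with 12 higher and 6 lower in NP with vehicle (median 0.29) and 11 higher and 5 lower with MDL-800 (median 0.25). Slc12a2, the sodium-potassium-chloride cotransporter NKCC1 that lets a shrunken cell regain volume, was higher by 2.29 (486 ± 221 against 110.4 ± 75.0; limma, adjusted p = 0.00175). Stk39, the kinase SPAK that activates it, was higher by 2.17 (177 against 41.9; adjusted p = 0.000157). Wnk1, which acts on SPAK, was higher by 1.91 with vehicle and 1.84 with MDL-800. Its relative Wnk4 differed by -1.55 (adjusted p = 0.000933) and -1.28 and was lower, and Oxsr1, the close relative of SPAK, did not pass (0.13, adjusted p = 0.229). Fxyd5, a sodium pump regulator, fell by 2.91 (28.5 against 218; adjusted p = 1.14e-05), and the pump subunit Atp1b1 differed by -2.64 (1.77 against 15.9; adjusted p = 0.000128). With MDL-800 the leading genes were Slc12a2 (2.17), the potassium-chloride cotransporter Slc12a7 (1.87), Atp1b1 (-3.33) and Fxyd5 (-3.21). Wnk1, Wnk4, Oxsr1 and Csad are outside the naming rule and were chosen after their values were seen.

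**Figure D5:**
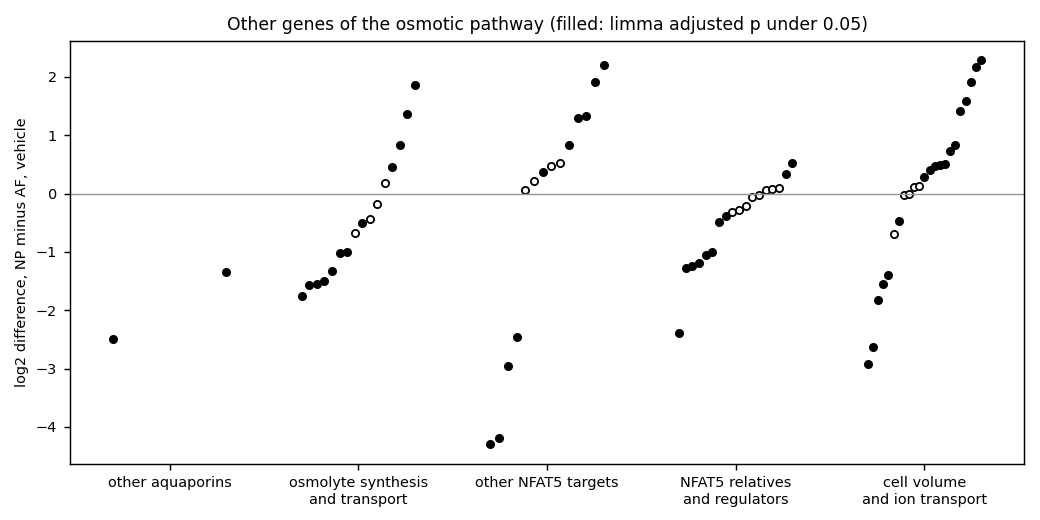
Log2 difference between NP and AF of the vehicle groups for each tested gene of the 5 lists, sorted within each list; filled dots have a limma adjusted p under 0.05. The lists of osmolyte genes and of NFAT5 regulators have more filled dots below 0 (8 and 8) than above (4 and 2), and the list of cell volume genes has more above (12) than below (6). Over all genes tested 33.9% were called lower and 21.8% higher.

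For MDL-800 against vehicle none of these list genes was called by limma in either tissue. In NP an unadjusted p under 0.05 was reached by 0 of 2 aquaporins, 3 of 16 osmolyte genes, 5 of 14 targets, 1 of 18 regulators and 8 of 23 cell volume genes, beside 14.1% of all genes tested. In AF it was reached by none of them.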

How the data were processed

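The members and the gene lists were chosen with earlier results of these data known. Per the labels' protocols, dissected tissue was stored in a stabilising solution, and stranded total RNA libraries were made after removal of ribosomal RNA from 50 ng of RNA with 14 PCR cycles. The submitters' processing notes name STAR 2.7.11b and the build mm10; the program and annotation behind the values are not given in the sources used here. The authors deposited 1 table of FPKM values for 20 libraries, whose columns were matched to samples by name.

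Computed here: scaling by the median ratio over the 11308 genes that reach 1 FPKM in every library (factors 0.933 to 1.06), a filter of 1 FPKM or more in at least 5 libraries (16383 genes), log2 with a pseudocount of 1, which understates low genes, and limma 3.58.1 in R 4.3.3 (eBayes with trend, two-sided), with only the groups compared in the fit. The deposited FPKM are not counts, so no count test was used. Depth was estimated from single-exon genes of 400 to 1200 bases, of which 76.8% to 85.8% of low values lay on whole-read steps; it entered no test. Fits and depth were tested on simulated data. Of 200 genes given a simulated log2 change of 1, 67% to 69% were found where 2 groups were compared. For the treatment effect in NP minus that in AF it was 51.5%. At a change of 2 it was 89% to 92.5%, so real changes can be missed. Relations used 100000 permutations.

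Coordinates are from GENCODE M21 on GRCm38, which holds 51596 of the 51789 identifiers. Genes named from the lists are the called ones with the largest differences, at most 2 in each direction, with a mean of at least 1 scaled FPKM in the higher group. The alternatives were a pseudocount of 0.1, no filter, no scaling, quantile normalization, removal of each library's GC trend, all 4 groups in the fit, eBayes without trend, and leaving out each library.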

Additional observations from a re-analysis of the deposited data

Results flagged for a closer look

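Each gene was looked at in each of the 4 groups for a single library that lay far from the other 4, by the gap to its nearest neighbour over the range of the group (Dixon's critical value 0.710). This was so in 4 of 35 groups. Chance alone gives about 1 in 20 for normally distributed values, which scaled FPKM near 0 are not. No excess is read from the count. Aqp1 in NP vehicle was highest in library 6, at 17.1 scaled FPKM with the next at 7.66. Aqp3 was highest in the same library, at 0.247 with the other 4 at 0, where any value above 0 meets the rule. Library 6 also had the highest red cell (184) and endothelial (8.48) marker sums of its group. Slc6a12 in AF MDL-800 was highest in library 25, at 112 with the next at 40.5, and that library had the highest NP marker sum of its group (7544); library 30, with a sum of 7262, had Slc6a12 at 33.4. Akr1b3 in NP vehicle was lowest in library 5, at 23.02 with the next at 26.0.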

How the results depend on the processing

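Under the alternatives other than leaving out a library, 4 of the 7 genes were called for NP against AF with vehicle, and 3 to 6 with MDL-800. The shares of all genes called were 53.6% to 63.5% and 48.0% to 68.4%. With no filter, where all 9 genes are tested, 5 were called in each, Aqp5 among them, beside 32.7% and 37.5% of all genes. Leaving out each library gave 3 to 6 with vehicle (6 without AF library 9, 3 without NP library 2 or AF library 10) and 5 to 6 with MDL-800. The shares of all genes called were then 50.6% to 55.8% and 58.4% to 62.8%. For MDL-800 against vehicle in either tissue and for its difference between tissues the count was 0 under every alternative run. The column names of NP and AF libraries share a number whose meaning is not stated. The deviations of same-numbered libraries from their group means correlated at r -0.18 to 0.29 over 5 vehicle pairs and -0.18 to 0.17 over 3 MDL-800 pairs. Pairs with different numbers spanned -0.37 to 0.33 with vehicle and -0.17 to 0.23 with MDL-800. So few pairs cannot decide whether the number marks the same animal. With that number as a replicate block, chosen after seeing the data, 4 genes were called with vehicle (53.6% of all genes). Over the 3 MDL-800 pairs 4 were called (48.0% of all genes), against 3 over the same libraries without the block (50.7%). The fewer samples are part of that MDL-800 alternative, in which Slc6a12 was at 1.55. Of values near 0, Hspa4l in NP turned to 0.047 for MDL-800 against vehicle with the GC trend removed, Aqp1 in AF to -0.0085, and Akr1b3 to 0.017 for the difference between tissues; the cause was not tested. Leaving out 1 library moved the treatment differences across 0 in NP for Nfat5 (-0.0025 to 0.16), Slc6a6 (-0.019 to 0.33), Slc6a12 (-0.33 to 0.10), Hspa4l (-0.096 to 0.033) and Aqp1 (-0.30 to 0.30). In AF it did so for Nfat5 (-0.16 to 0.25), Slc5a3 (-0.015 to 0.34), Akr1b3 (-0.15 to 0.040), Slc6a12 (-0.026 to 0.55) and Aqp1 (-0.097 to 0.10), and between tissues for Nfat5 (-0.15 to 0.26), Akr1b3 (-0.12 to 0.074) and Aqp1 (-0.32 to 0.27). Over all genes, the 41 calls in NP became 7 with no filter, 18 without scaling, 70 with quantile normalization, 4 with all 4 groups in the fit, and 2 to 189 on leaving out a library. Depth limits Aqp3 and Aqp5, which rest on few reads.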

Other observations

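Of the 73 pathway list genes tested, 5 (6.85%) did not overlap between NP vehicle and NP MDL-800, beside 4.50% of all genes tested. None passed. The 3 with the smallest adjusted p are given, chosen after their values were seen, and the other 2 were Wnk4 (adjusted p = 0.150) and Wnk2 (adjusted p = 0.228) by limma. Hspa2, a heat shock protein, was at 39.7 ± 4.36 scaled FPKM with vehicle and at 55.0 ± 3.82 with MDL-800 (SD, n = 5 each; log2 difference 0.46, limma, adjusted p = 0.0563). Isyna1, the enzyme that starts myo-inositol synthesis, was at 4.55 and 7.90 (0.70, adjusted p = 0.0743). B3gat3, which builds the linker that carries glycosaminoglycan chains, was at 26.4 and 42.9 (0.70, adjusted p = 0.101). The slope of expression on GC content also separated these groups without overlap, and its part in these differences was not tested.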
